A study of Mus musculus with 8 samples.

Results

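The nuclei described here are dendritic lineage nuclei that carry transcripts of MHC class II genes. They were chosen by raw counts of unique molecular identifiers (UMIs, the number of distinct RNA molecules read per gene): at least 5 UMIs summed over Cd74, H2-Aa, H2-Ab1 and H2-Eb1, at least 2 of these 4 genes detected, no UMI of Pax5, at most 1 of Ebf1 and at most 2 of Jchain. The last 3 genes mark B cells and plasma cells. The rule selected 134 of 8708 nuclei, a share of 1.54% (95% Clopper-Pearson interval 1.29 to 1.82%; this and all intervals below cover counting error only). Because the rule used the counts of these 7 genes, their levels are a description and no finding.

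Dendritic cells take up proteins, cut them into peptides and show the peptides on MHC molecules to T cells. MHC class II molecules carry peptides from taken-up proteins to CD4 T cells, and CIITA is the coactivator that turns their genes on. Conventional dendritic cells are classed as type 1 (cDC1), which present taken-up antigen on MHC class I to CD8 T cells and depend on IRF8, BATF3 and ID2, and type 2 (cDC2), which depend more on IRF4. Plasmacytoid dendritic cells, a further class, depend on TCF4.

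The study sorted lineage-negative, Sca1-positive, Kit-positive (LSK) marrow cells, the fraction with blood stem cells and early progenitors, from WT mice and from littermates whose MYC carries the point mutation T58A. Nuclei of the sorted cells went through the 10x multiome assay, which reads RNA and open chromatin from the same nucleus. The labels name 2 RNA samples per genotype, each pooled from 2 mice, with no age given. The RNA table carries barcodes in 4 sets, and no label ties a set to a genotype, a sample or a mouse. WT and T58A were therefore not compared, the whole table counts as 1 sample, no test was possible, and values of the 4 sets stand side by side without being replicates.

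The 4 sets held 2999, 721, 2756 and 2232 nuclei, with median depths from 3035 to 6764 UMIs. The dendritic nuclei had 647699 UMIs in all, a median of 3638 per nucleus (1209 to 24761), against a median of 4158 in the other 8574 nuclei. Mitochondrially encoded genes took 10.6% of their UMIs and 17.4% in the other nuclei. Of 36 barcode sequences that occur in more than 1 set, 2 belonged to a dendritic nucleus, and no pair had dendritic nuclei on both sides. A group of 26 of the 134 nuclei stood apart by stem cell genes, and 15 of these 26 were among the highest 5% of their set in a score for doublets (barcodes that hold more than 1 nucleus). Of the other 108 nuclei, 1 was in that range. The median score was 0.633, 0.633, 0.433 and 0.267 in dendritic nuclei of sets 1 to 4. In the other nuclei of these sets it was 0.367, 0.400, 0.367 and 0.400. The higher scores in sets 1 to 3 were thus not confined to the highest 5%, and their cause was not tested. Counts that moved by over 1.5 times without the 26 nuclei are given both ways.

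Dendritic nuclei made up 0.433% of set 1 (13 nuclei; interval 0.231 to 0.740%), 1.39% of set 2 (10; 0.667 to 2.54%), 1.81% of set 3 (50; 1.35 to 2.38%) and 2.73% of set 4 (61; 2.10 to 3.50%). Set 1 was the lowest, and its interval overlapped that of set 2 only. Depth differed between the sets, so each nucleus was also thinned to 2000 UMIs and shallower nuclei were left out. The shares were then 0.383%, 0.840%, 1.36% and 2.34%, in the same order. Mitochondrial genes took 24.6%, 9.98%, 24.2% and 9.22% of the UMIs in sets 1 to 4. The cause of the differences in the share of dendritic nuclei was not tested.

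**Figure D1:**
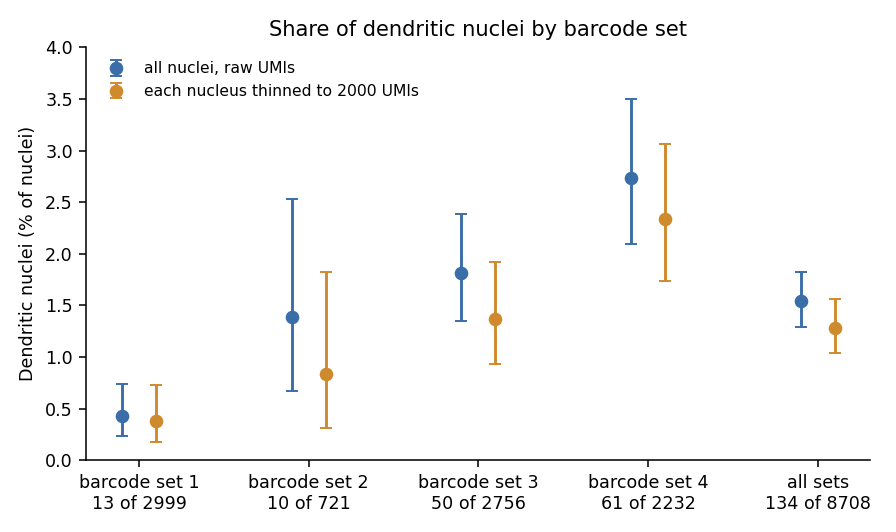
Share of dendritic nuclei among all nuclei (y axis, percent) in each barcode set and in the whole table (x axis, with counts), from raw UMIs and after thinning each nucleus to 2000 UMIs. Points are shares and bars are 95% Clopper-Pearson intervals; the shares run from 0.433% in set 1 to 2.73% in set 4 on raw UMIs.

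In all, 159 nuclei passed the MHC class II part of the rule, and 25 of these were left out by the limits on Pax5, Ebf1 and Jchain. The 134 nuclei held a median of 22.5 UMIs of the 4 genes (5 to 152), and 108 of them had all 4 genes, 22 had 3 and 4 had 2. Of the 8574 other nuclei, 7519 had no UMI of any of the 4 genes and 812 had 1. Cd74 encodes the invariant chain that guides MHC class II molecules to the endosome, and it stood at 2004, 2901, 1729 and 2057 CPM (UMIs per 1000000 UMIs) in sets 1 to 4. The other nuclei had 17.8 CPM of Cd74. Cd74 is a gene of the rule, so these levels are a description and no finding.

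The threshold at 5 UMIs can be read against 5 genes that the rule did not use: Xcr1, Clec9a, Cadm1, Tlr3 and Naaa, known from cDC1 and picked after their values were seen. Just outside it, among 49 nuclei with 3 or 4 UMIs of the MHC class II genes, 5 had at least 2 of the 5 genes. Just inside, among 25 nuclei with 5 to 9 UMIs, 8 did and 9 had none. Of 47 nuclei with 10 to 24 UMIs, 35 had at least 2 of the genes, and of 62 nuclei with 25 or more, 60 did. Median depth was 4212 UMIs in the 49 nuclei outside and 2568, 3045 and 4349.5 UMIs in the 25, 47 and 62 nuclei inside. Set 4 held 5, 15 and 41 of these nuclei inside. The part of depth and set in the rise was not tested. Among all 134 nuclei, 103 had at least 2 of the 5 genes, 36 had all 5, and 14 had none. Among the 8574 others, 20 had at least 2, and 5 of these had no MHC class II UMI.

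Some genes of the wider MHC class II pathway, Ciita and March1 among them, were higher in dendritic nuclei than in the other nuclei. Calls rest on the ratio of summed counts (CPM plus 10): a gene past 2-fold whose direction held in each of the 4 sets was called, among 13118 genes with at least 50 UMIs over both groups. Across all measured genes this rule called 4.54% higher and 2.48% lower, and the median log2 ratio was -0.09. Of 19 pathway genes in the table, 18 were measured, 6 were called higher and none lower, with a median log2 ratio of 0.59 (without the 26 nuclei, 6 higher and 1 lower); the 18 would all have passed the count minimum on the other nuclei alone. Ciita, the coactivator gene, had 867, 663, 701 and 436 CPM in sets 1 to 4 and 3.86 CPM in the other nuclei, 142 times higher (118 to 172). March1, whose product tags MHC class II molecules for turnover, had 627 CPM against 3.44 CPM, 182 times higher (151 to 221).

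The peptide exchange chaperone H2-DM was represented by H2-DMb1, with 108, 145, 215 and 124 CPM in sets 1 to 4 and at most 12.2 CPM in the other nuclei of any set. H2-DMa had 71.0 CPM and was 3.62 times higher (2.63 to 4.87), and H2-DMb2 had 12 UMIs and was 16.4 times higher (7.95 to 31.1). H2-DMb1 and H2-DMb2 are close copies, so reads of the pair may be split between them in counting. Ctss, the protease that trims the invariant chain, was 10.97 times higher (9.02 to 13.2). H2-Oa and H2-Ob, which encode the modulator of H2-DM, had ratios of 7.06 and 4.24 and were not called, with no UMI of either in set 1. The DNA-binding factors that act with CIITA stood near the other nuclei: Rfx5 at a ratio of 1.32 (0.738 to 2.20), Nfya at 1.01 (0.801 to 1.27), Nfyc at 1.03 (0.811 to 1.29) and Creb1 at 1.28 (1.10 to 1.48). Rfxap had no UMI in dendritic nuclei.

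MHC class II promoters carry a Y box, which the NF-Y complex binds. The 4 promoters shown are those of an alpha and a beta chain gene and of the H2-DMb pair, as examples of the genes whose window holds it. Each line gives 150 bases before the start of transcription, 5′ to 3′ on the gene's strand, from RefSeq with build GRCm38.p6, with the letters ATTGG of the Y box in capitals.
H2-Aa: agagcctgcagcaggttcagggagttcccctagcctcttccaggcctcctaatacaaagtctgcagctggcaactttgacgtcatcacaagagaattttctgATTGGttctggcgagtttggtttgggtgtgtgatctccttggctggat
H2-Eb1: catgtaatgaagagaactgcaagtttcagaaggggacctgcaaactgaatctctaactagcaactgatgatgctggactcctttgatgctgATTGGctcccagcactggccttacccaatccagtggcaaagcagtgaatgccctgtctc
H2-DMb1: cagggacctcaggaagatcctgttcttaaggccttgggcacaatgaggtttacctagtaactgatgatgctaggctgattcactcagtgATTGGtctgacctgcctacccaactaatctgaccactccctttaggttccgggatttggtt
H2-DMb2: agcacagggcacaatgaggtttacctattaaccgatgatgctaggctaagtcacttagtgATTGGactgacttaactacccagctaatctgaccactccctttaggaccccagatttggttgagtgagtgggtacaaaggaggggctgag

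These windows are chr17:34287824-34287973 for H2-Aa (minus strand), chr17:34305717-34305866 for H2-Eb1, chr17:34153041-34153190 for H2-DMb1 and chr17:34145099-34145248 for H2-DMb2 (all plus strand). The letters start at position -48 in H2-Aa, -59 in H2-Eb1, -61 in H2-DMb1 and -90 in H2-DMb2, counted from the start of transcription. The search looked for ATTGG on the gene's strand with its first letter between -100 and -40. Of 19 genes of the pathway lists whose promoters were searched, 10 held it there. Of the 8 H2 genes among them, 7 held it, H2-Eb2 at -100 on the edge of the range, and H2-DMa did not. A gene counted if any of its windows held it, while the shares of all promoters are per window. Of all 32851 promoter windows in the table, 7.71% held it in that range, 22.1% held it anywhere on the same strand and 37.4% on either strand, from 250 bases before to 50 after the start. A match of letters is a description and not a binding site.

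Markers of cDC1 were higher in dendritic nuclei than in other nuclei. Of 18 genes of the cDC1 list, 15 were measured, 14 were called higher and none lower, with a median log2 ratio of 3.95. Xcr1, Ifi205, Tlr11 and Gcsam passed the count minimum only through the dendritic nuclei and so had to differ; of the 11 that would have passed on the other nuclei alone, 10 were called higher. The list was chosen with earlier results of these data known, so its count is no independent evidence.

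Xcr1, the receptor for the chemokine XCL1, is a defining cDC1 gene and had 190, 228, 175 and 210 CPM in sets 1 to 4, against at most 0.712 CPM in the other nuclei of any set. Clec9a, the receptor for exposed actin of dead cells, had 515, 705, 469 and 526 CPM against 2.03, 1.22, 2.78 and 3.17 CPM. Cadm1, an adhesion molecule, had 1462, 1679, 1034 and 1004 CPM against 3.36, 4.01, 3.74 and 2.85 CPM. In each of these 3 genes the 4 sets of dendritic nuclei lay far above the 4 sets of other nuclei. The ratios were 431 for Xcr1 (270 to 719), 207 for Clec9a (167 to 258) and 323 for Cadm1 (271 to 387). Without the 26 nuclei, Xcr1 stood at 266 CPM, Clec9a at 630 CPM and Cadm1 at 1482 CPM.

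The cDC1 genes with a role in sensing and handling cargo moved the same way. Tlr3, the endosomal receptor for double-stranded RNA, was 203 times higher (147 to 285), and Naaa, a lysosomal amidase, 148 times (123 to 180). Wdfy4, which cross-presentation of cell-associated antigen needs, was 12.7 times higher (12.2 to 13.3), at 3358, 4911, 3408 and 3351 CPM against 228, 316, 235 and 323 CPM. Batf3 was under the count minimum, with 37 UMIs in dendritic nuclei and 12 in all other nuclei, and none of the 37 were in set 1. Cd24a, at 80.3 CPM against 40.9 CPM, was the measured gene of the list that was not called.

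The share of nuclei with a UMI gives the same picture against nuclei that should lack these genes. Clec9a was detected in 70.9% of dendritic nuclei (62.4 to 78.4%), in 0.665% of other nuclei and in 0.457% of 438 erythroid nuclei (chosen after the data were seen by at least 2 UMIs each of Car1 and Slc25a21). Xcr1 was detected in 47.8% of dendritic nuclei and in none of the erythroid nuclei, which allows a share of up to 0.685% (3 of 438). Cadm1 was detected in 64.9% of dendritic nuclei and 2.28% of erythroid nuclei. The erythroid nuclei were deeper, with a median of 9285 UMIs against 3638. At 2000 UMIs per nucleus, Clec9a was detected in 58.8% of dendritic nuclei, Xcr1 in 31.1% and Cadm1 in 59.7%, against 0.230%, 0% and 0.461% of erythroid nuclei.

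**Figure D2:**
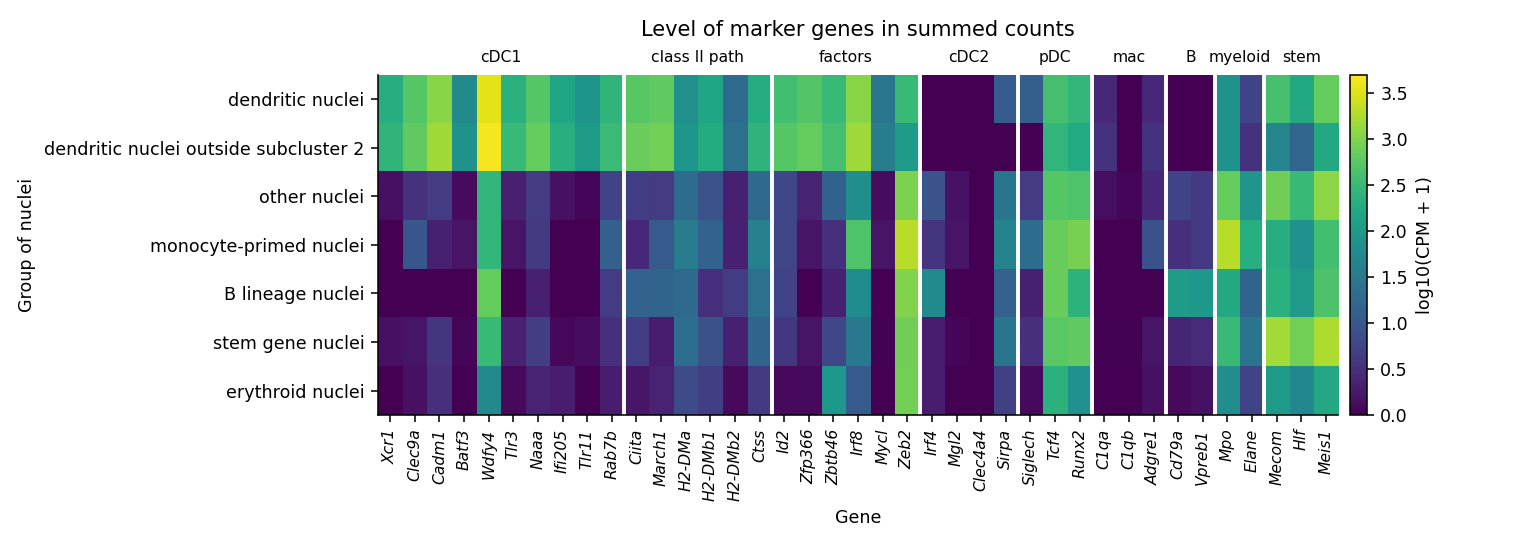
Levels of marker genes (x axis, grouped by cell type; pDC is plasmacytoid dendritic cell, mac is macrophage) in the summed counts of 7 groups of nuclei (y axis), as log10 of CPM plus 1 in colour. Dendritic nuclei are bright for the cDC1 genes, Ciita and March1 and dark for Irf4, Mgl2, Clec4a4, the C1q genes and the B cell genes; without the 26 nuclei of subcluster 2 the stem genes Mecom and Hlf are darker too.

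The cDC2 list summed to 147 CPM in dendritic nuclei (108 to 207 over the sets) and 110 CPM in other nuclei. Of its 16 genes, 7 had no UMI in dendritic nuclei, among them Irf4, Mgl2, Clec4a4 and Ccl17. Rnase6, with 78.7 CPM against 6.72 CPM, was the cDC2 list gene called higher, and 1 was called lower without the 26 nuclei. Of the plasmacytoid list, Siglech had 8 UMIs, all in barcode set 3 and all among the 26 nuclei, and 3 of its 18 genes, Spib, Klk1 and Cox6a2, had none. Tcf4, the factor of plasmacytoid cells, stood at 405 CPM against 528 CPM in other nuclei. Ccr9 (116 CPM against 6.12 CPM) and Pld4 (159 CPM against 6.79 CPM), a gut-homing receptor and an endosomal nuclease, were the 2 genes of that list called higher. The summed level of the list was 1172 CPM in dendritic nuclei (808 to 1334 over the sets) and 1259 CPM in the others, and without the 26 nuclei 1 of its genes was called lower.

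The macrophage list of 16 genes had 15 UMIs in all, 23.2 CPM against 29.7 CPM in other nuclei, with C1qb, C1qc, Mertk and Marco at 0. The T, NK and innate lymphoid list had 14 UMIs over 16 genes, 21.6 CPM against 30.3 CPM, with Cd3e and Trac at 0. The B cell list, which the rule touches through Pax5 and Ebf1, had 8 of its 18 genes at 0, among them Cd79a and Vpreb1; most of its 207 UMIs were Igkc (108) and Ighm (63). The monocyte list summed to 1013 CPM in dendritic nuclei against 321 CPM in other nuclei, higher in each set, and its part in the results was not tested. Of this list, Ccr2, Ly86 and Klf4 were called higher, while Csf1r had 3 UMIs and Cd14 and Fcgr1 had none. Ccr2, the receptor that guides marrow exit, had 460, 539, 401 and 376 CPM in sets 1 to 4, against at most 26.7 CPM in other nuclei of any set. The cDC1 list summed to 9061 CPM against 458 CPM in other nuclei; it was chosen with earlier results known, so the sum describes the group and does not test its label.

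**Figure D3:**
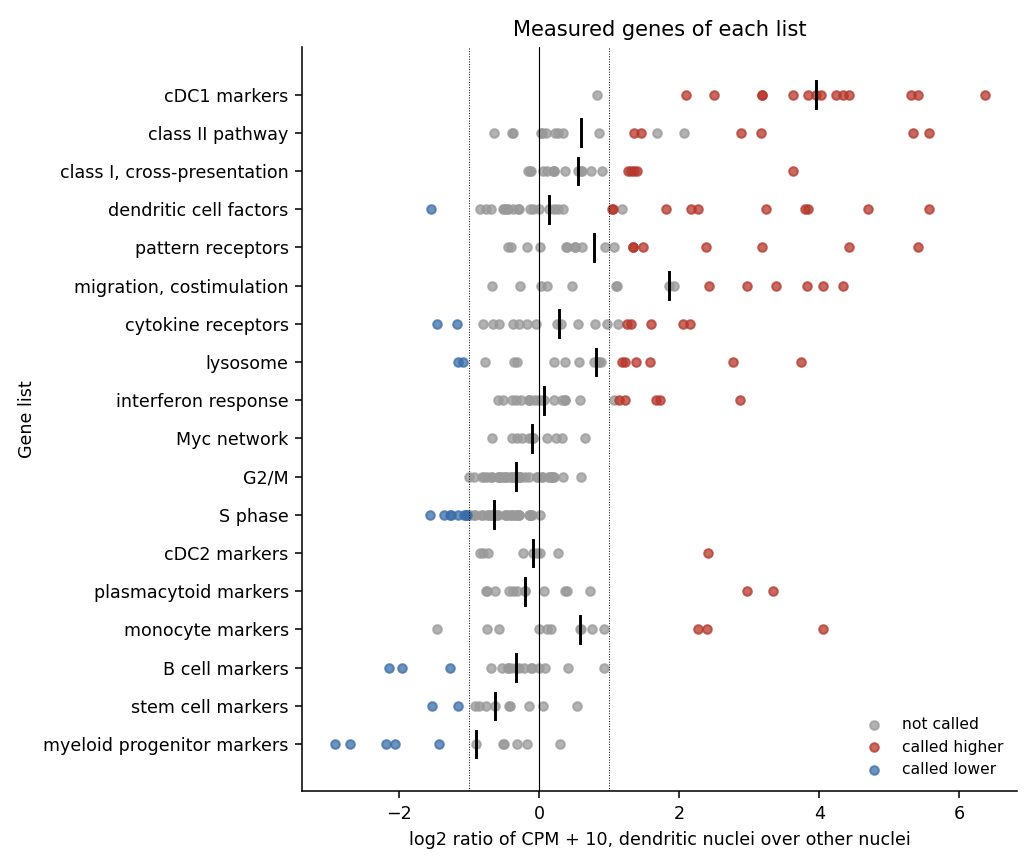
Log2 ratio of CPM plus 10 in dendritic over other nuclei (x axis) for each measured gene of 18 lists (y axis). Points are genes, coloured by call; black bars are list medians and dotted lines mark 2-fold. The cDC1 median is 3.95, and no gene of the Myc network is coloured as called in this fit of all 134 nuclei.

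Over the whole table, 595 genes were called higher and 325 lower than in other nuclei. The 26 nuclei weighed on the second count: without them 713 genes were higher and 1072 lower, with 312 of the 325 among them. Of the 15 highest ratios, Cadm1, Clec9a, Naaa and Tlr3 belong to the cDC1 list, Ciita and March1 to the MHC class II pathway, and Plbd1, a lysosomal lipase-like protein, to the conventional dendritic list. Plbd1 had 1273, 1533, 972 and 1009 CPM in sets 1 to 4 against at most 5.22 CPM elsewhere, 259 times higher (220 to 307). The other names are less tied to dendritic cells by the lists. Pid1, an adaptor of LDL receptor-related proteins, was 114 times higher (99.7 to 130), and Htr7, a serotonin receptor, 461 times (299 to 741). Of the 595 genes, 25 passed the count minimum only through the dendritic nuclei, Htr7 (24 UMIs in other nuclei) among them. Naming needed at least 100 UMIs over both groups. Zfp366, Tlr3 and Adam19, with 56, 51 and 65 UMIs in other nuclei, reached that only through the dendritic nuclei. Shtn1 was 84.2 times higher (72.1 to 98.2), Adam19, a membrane metalloprotease, 161 times (119 to 218), and Cdk14, a cyclin-dependent kinase, 23.3 times (21.7 to 24.9).

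Zfp366, which encodes the factor DC-SCRIPT, had 542, 787, 322 and 576 CPM in sets 1 to 4 against at most 2.14 CPM. Id2, an inhibitor of E proteins, had 569, 414, 356 and 371 CPM against at most 6.28 CPM. Gm36723, a long noncoding RNA gene, was 64.7 times higher (56.0 to 74.7). It lies 260 kb from Id2 on chromosome 12, and both were among the 15 highest ratios.

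Among the 15 lowest ratios were genes known from other progenitor branches. Neutrophil granule genes were lower: Mpo, myeloperoxidase, had 54.2, 82.9, 39.6 and 98.6 CPM in sets 1 to 4 against 466, 1472, 380 and 731 CPM, and was 8.40 times lower (6.38 to 11.3). Elane, Ctsg and Prtn3, the serine proteases of those granules, had 3, 5 and 19 UMIs. Of the 10 genes of the erythroid list, 3 were called lower (Car1, Ermap and Rhag) and none higher. Slc25a21 had 49.4 CPM against 478 CPM, and Car1, Kel, Ermap and Ank1, known from red cell precursors, had 12, 1, 3 and 4 UMIs in dendritic nuclei. Dntt, the polymerase of lymphoid progenitors, had 30.9 CPM against 136 CPM. The other 5 were Slc24a3, Plcb1, Rab44, Shank3 and Dennd5b, with at most 12 UMIs each.

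Among 32 transcription factors of dendritic cell development, 29 were measured, 10 were called higher and 1 lower. The lower count was 3 without the 26 nuclei, 3 with the sets weighted equally, 4 without set 4 and 4 with CPM plus 1. Irf8, on which cDC1 depend, had 1408, 1098, 1209 and 1037 CPM in sets 1 to 4 against 75.7, 76.7, 56.0 and 69.5 CPM, 16.3 times higher (14.99 to 17.7). Zbtb46, a factor shared by conventional dendritic cells, was 23.8 times higher (20.2 to 28.0), and Bcl6, a repressor, 13.6 times (11.6 to 16.0). Notch2 and Rbpj, receptor and nuclear partner of Notch signalling, were 3.66 times (3.31 to 4.03) and 4.83 times higher (4.30 to 5.41). Klf4, Spi1 and Cbfa2t3 had ratios of 6.61, 2.42 and 2.10.

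Zeb2, a repressor known to oppose Id2 in dendritic development, was the factor called lower over all 134 nuclei, at 162, 145, 84.8 and 459 CPM against 738, 1016, 806 and 1183 CPM. Set 4 was the highest of the 4 and still below its other nuclei. Without the 26 nuclei Zeb2 stood at 108 CPM, and in the 26 at 651 CPM. The median log2 ratio of the 29 factors was 0.14, 0.12 with CPM over non-mitochondrial UMIs and -0.032 with the 4 sets weighted equally.

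Lists of antigen handling and signalling had some genes called higher. Of 19 MHC class I and cross-presentation genes, 5 were called higher and none lower (median log2 ratio 0.56): Wdfy4, the peptide transporter gene Tap1 (2.73 times, 2.22 to 3.31), the immunoproteasome gene Psmb9 (3.23 times, 2.43 to 4.22), H2-M3 and Tapbp. Of 20 migration and costimulation genes, 15 were measured and 6 were called higher (median 1.85), of which Xcr1 and Cd83 (and Ccr7 among the rest) passed the count minimum only through the dendritic nuclei. Cd86, the ligand of CD28 on T cells, had 162, 311, 277 and 270 CPM against at most 26.7 CPM. Of 18 lysosome genes, 6 were called higher and 2 lower, with Psap, the saposin precursor, at 14.5 times (13.5 to 15.5).

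Of 24 pattern receptor genes in the table, 18 were measured and 7 were called higher, led by Clec9a, Tlr3, Tlr11 and Unc93b1, the chaperone of endosomal Toll-like receptors (327 CPM against 54.6 CPM). Tlr11 passed the count minimum only through the dendritic nuclei and so had to differ. Of the 17 that would have passed on the other nuclei alone, 6 were called higher. Of 20 cytokine receptors, Csf2ra, Il6ra, Ifngr1, Ifngr2 and Il10ra were called higher and Csf3r and Il1r1 lower. Flt3, the receptor whose ligand drives dendritic cell development, had 460, 746, 514 and 501 CPM against 312, 491, 251 and 413 CPM, a ratio of 1.48 (1.32 to 1.64), and was not called.

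MYC, the protein mutated in this study, works with MAX and competes with the MXD and MNT repressors. Of 13 genes of this network, 12 were measured and none was called by the 2-fold rule, while Myc was called lower without the 26 nuclei (log2 ratio -1.12) and with the sets weighted equally (-1.27). Myc had 0, 20.7, 28.3 and 36.3 CPM in sets 1 to 4 against 54.9, 67.1, 39.8 and 64.4 CPM, from 20 UMIs, so every set was lower and the ratio of 0.557 (0.339 to 0.861) stayed within 2-fold on the CPM plus 10 scale. Mycl, the paralog known from dendritic cells, was under the count minimum, with 18 UMIs in the 134 dendritic nuclei and 15 in the 8574 others. Its levels were 27.1, 104, 11.3 and 25.9 CPM in sets 1 to 4 and at most 0.453 CPM in other nuclei. Max had a ratio of 0.819 (0.566 to 1.15), and Mxi1 of 1.68 (1.28 to 2.17).

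Against monocyte-primed nuclei, a branch close to dendritic cells, 438 genes were called higher and 335 lower of 6482 measured, 6.76% and 5.17%. These 195 nuclei had at least 2 UMIs of Irf8, at least 2 of Csf1r and Ly86 together and at most 1 MHC class II UMI, so those genes were left out of the counts. Of the 438, 186 passed the count minimum only through the dendritic nuclei. Cadm1, Plbd1, Zfp366, Ciita, Gm36723 and Clec9a were among these 186 and so had to differ. Cadm1, Plbd1, Zfp366 and Ciita had 2, 3, 1 and 3 UMIs in the monocyte-primed nuclei, and Gm36723 had none, which makes it at least 350 times higher against 3 UMIs, with an exact interval that starts at 283. Clec9a had 16 UMIs there, in 5.64% of the nuclei, and was 60.2 times higher in dendritic nuclei (36.5 to 107). Flt3 had a ratio of 1.04 (0.914 to 1.18).

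The 5 lowest ratios were genes of the granulocyte and monocyte branch. Mpo was 25.5 times lower (19.3 to 34.3), and F13a1, coagulation factor XIII of monocytes, 35.8 times (21.98 to 62.8), and Elane, Ctsg and Prtn3 were the others. F13a1, Elane, Ctsg and Prtn3 had 16, 3, 5 and 19 UMIs in dendritic nuclei and passed the count minimum only through the monocyte-primed nuclei. Of the 11 genes of the myeloid progenitor list, 7 were measured and 5 were called lower. Zeb2 was 6.35 times lower (5.51 to 7.34) and Runx2 3.11 times (2.66 to 3.64). Without the 26 nuclei the counts were 485 higher and 691 lower.

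Against 164 B lineage nuclei (at least 1 UMI of Pax5 and 2 of Ebf1), 492 genes were called higher and 308 lower of 4949 measured, 9.94% and 6.22%. The B lineage nuclei had 111 CPM of the 4 MHC class II genes of the rule and a median of 0 UMIs of them. Of the 492, 315 passed the count minimum only through the dendritic nuclei. Cadm1, Clec9a, Zfp366 and Ciita were among these 315 and so had to differ. Cadm1, Clec9a and Zfp366 had no UMI in B lineage nuclei and were at least 323, 155 and 154 times higher against 3 UMIs, with exact intervals that start at 262, 126 and 125. Ciita was 40.8 times higher (23.04 to 79.6) and Irf8 17.96 times (13.6 to 24.1). In the other direction, Lef1 had no UMI in dendritic nuclei and was at least 116 times lower against 3 UMIs (exact interval from 93.8), and Blnk, the adaptor of the B cell receptor, was 84.1 times lower (42.5 to 195). Cecr2, Gfra1 and Gfra2 had 2, 2 and 1 UMIs. Lef1, Blnk, Cecr2, Gfra1 and Gfra2 passed the count minimum only through the B lineage nuclei and so had to differ. Il7r, the receptor of the cytokine that B progenitors need, was 19.9 times lower (11.5 to 37.7). The rule for dendritic nuclei limits Pax5 and Ebf1, and the same genes chose the B lineage nuclei. Lower levels of B lineage genes are therefore a description and no finding. Without the 26 nuclei the counts were 523 higher and 551 lower.

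Genes of the sort gate were read too. Kit had 433, 166, 311 and 501 CPM in sets 1 to 4 against 439, 464, 428 and 539 CPM, a ratio of 0.887 (0.784 to 1.00), and was detected in 66.4% of dendritic nuclei and 73.1% of others. It was detected in 22 of the 26 nuclei with stem cell genes, against 45 of 77 and 21 of 28 in subclusters 0 and 1 described below. The 26 nuclei were deeper, with a median of 8007.5 UMIs against 3462.5 in the other 108. Ly6a, which encodes Sca1, had 10 UMIs and was called neither higher nor lower than in other nuclei. The median log2 ratio of the 4 gate genes was 0.16. Cd34 was called lower, at 81.8 CPM against 210 CPM, and stood at 45.2 CPM without the 26 nuclei. In RNA of nuclei these values do not show the protein on the cell surface.

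Fewer dendritic nuclei than other nuclei carried G2/M genes. After thinning to 2000 UMIs, 68 of 119 dendritic nuclei had at least 2 of the 40 G2/M genes, 57.1% (47.7 to 66.2%), against 79.4% of other nuclei (78.4 to 80.3%), 95.9% of monocyte-primed and 92.8% of B lineage nuclei. The monocyte-primed and B lineage nuclei were chosen by minimum UMIs of some genes. Before thinning their median depths were 8377 and 4691.5 UMIs, against 3638 in dendritic nuclei. The part of this choice in their shares was not tested. Unthinned, the shares were 70.1% and 86.6% in dendritic and other nuclei. Without the 26 nuclei the thinned share was 58.5%. No G2/M gene was called (without the 26 nuclei, 1 was called higher), and the median log2 ratio was -0.33 and -0.043 without them. Of 39 S phase genes, 9 were called lower and none higher (median -0.64), and without the 26 nuclei 14 were lower. Among the 9 were Pole (21.6 CPM against 82.7 CPM) and Uhrf1 (21.6 CPM against 66.8 CPM).

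Clustering of the 134 nuclei on 653 variable genes, without the 7 genes of the rule, gave 4 subclusters of 77, 28, 26 and 3 nuclei, numbered 0 to 3. The genes that lead them describe the clustering and are no finding. Subcluster 0, with 8, 6, 30 and 33 nuclei in sets 1 to 4, was cDC1-like: the cDC1 list summed to 14227 CPM, with Cadm1 at 2068 CPM, Clec9a at 824 CPM and Xcr1 at 357 CPM. Of its 77 nuclei, 65 had at least 2 of the 5 cDC1 genes and 5 had none. It was led by Hepacam2, Sh3tc1, Klrk1, Chsy3 and Gm35853. At 2000 UMIs, 42.2% of its nuclei had at least 2 G2/M genes. Subcluster 1, with 3, 3, 11 and 11 nuclei, was led by the mitosis genes Parpbp, Neil3, Nusap1, Kif11 and Depdc1a and is not named by cell type. Its cDC1 list summed to 8276 CPM, and 21 of its 28 nuclei had at least 2 of the 5 cDC1 genes. Ciita was at 920 CPM in subcluster 0 and 428 CPM in subcluster 1.

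Subcluster 2, with 2, 1, 9 and 14 nuclei, was led by Mecom, Hlf, Tox, Trpc6 and Stat4, and by its leading genes it takes no dendritic name. Its nuclei had a median of 8007.5 UMIs, against 3462.5 in the other 108. Their median doublet score was 0.800, against 0.417, with a possible range from 0 to 1. The cDC1 list summed to 4875 CPM and the stem cell list to 3658 CPM, against 14227 and 786 CPM in subcluster 0 and 457 and 4960 CPM in 2181 stem gene nuclei (at least 2 UMIs each of Hlf and Mecom, chosen after the data were seen). Of its 26 nuclei, 15 had at least 2 of the 5 cDC1 genes and 6 had none. Barcodes that hold 2 nuclei and nuclei that carry both kinds of transcript cannot be told apart with these counts.

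**Figure D4:**
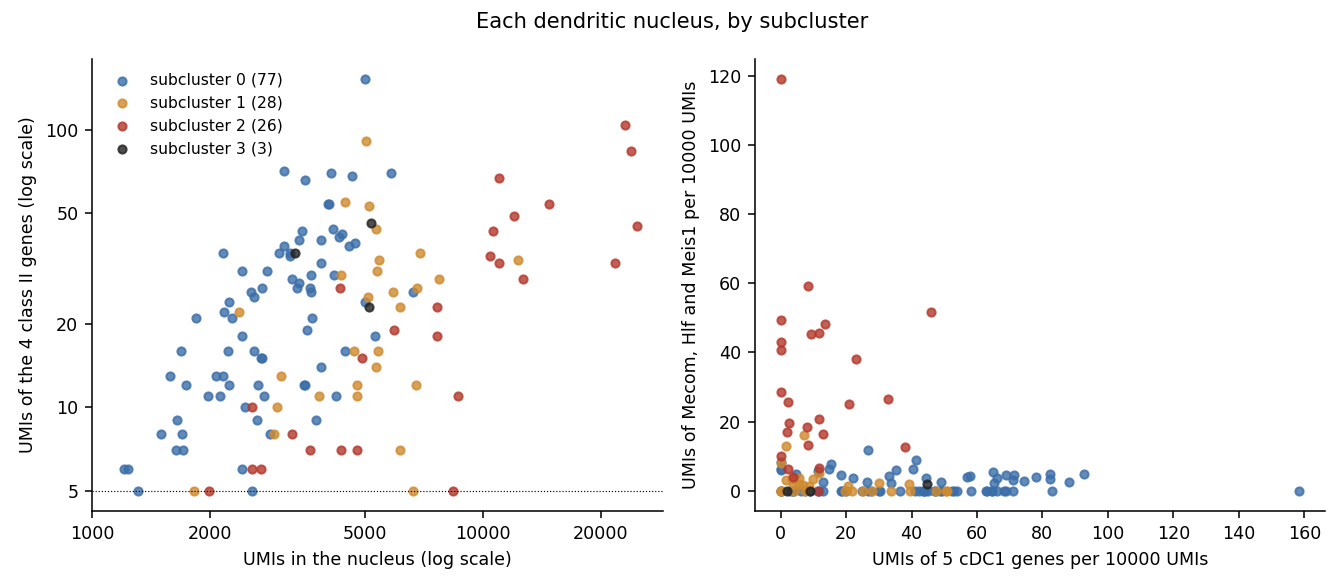
Each of the 134 dendritic nuclei, coloured by subcluster. Left, UMIs of the 4 MHC class II genes (y axis, log scale) by all UMIs of the nucleus (x axis, log scale), with the rule's minimum of 5 dotted. Right, UMIs of Mecom, Hlf and Meis1 (y axis) by UMIs of Xcr1, Clec9a, Cadm1, Tlr3 and Naaa (x axis), both per 10000 UMIs; 21 of the 26 nuclei of subcluster 2 have more of the stem gene UMIs than of the cDC1 UMIs, and 6 of the 26 lie below the median depth of 3638 UMIs.

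Subcluster 3 held 3 nuclei, all of set 4. Its leading genes included Ccr7, which guides mature dendritic cells to lymph nodes, the actin bundler Fscn1, Cacnb3 and Apol7c of the mature dendritic list. By these genes the subcluster was called mature dendritic cell-like, a name that rests on 3 nuclei and was not tested. Their median doublet score was 0.700, against 0.417 in the 108 nuclei outside subcluster 2, and 0 of the 3 were in the highest 5%. Ccr7 and Cacnb3 were detected in all 3 nuclei, Apol7c in 2 and Fscn1 in 1. That list summed to 7003 CPM in them, against 382 CPM in subcluster 0. Ciita, March1, Tlr3 and Xcr1 had no UMI in the 3 nuclei, while Cd74 had 12 to 14 UMIs in each and Cadm1 had 1 to 20. A total of 13566 UMIs stands behind these values, so a level of 0 there allows up to 221 CPM (3 UMIs).

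**Figure D5:**
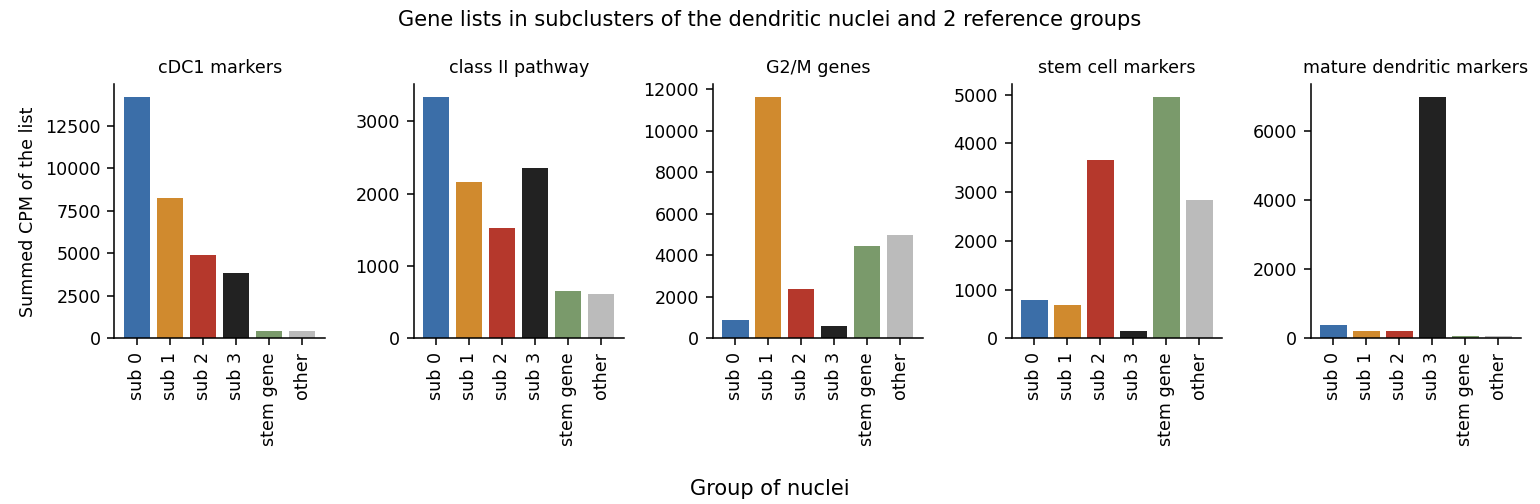
Summed CPM (y axes, each from 0) of 5 gene lists in subclusters 0 to 3 of the dendritic nuclei, in stem gene nuclei and in all other nuclei (x axes). The cDC1 list falls from 14227 CPM in subcluster 0 to 4875 CPM in subcluster 2, the G2/M list peaks in subcluster 1, and the mature list in the 3 nuclei of subcluster 3.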

How the data were processed

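The authors deposited a table of raw UMI counts per gene and nucleus with no normalization, and its values were whole numbers. The submitters' processing notes name Cell Ranger ARC, Seurat, Signac and mm10; their versions and any filter on nuclei are not given here by any source. The ATAC samples were not used here, and 0 per-sample columns were left unused. The members and gene lists were chosen with earlier results of these data known.

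Counts were summed per group and scaled to CPM over all UMIs, with exact Poisson intervals for CPM, exact binomial intervals for ratios and Clopper-Pearson intervals for shares, all at 95%. Folds are ratios of CPM without the added 10. A fold against no UMI uses 3 UMIs over the group. Genes named are the 15 highest and 15 lowest against other nuclei and 5 each way against the other references, among called genes with at least 100 UMIs and without rule, mitochondrial, sex-linked and immunoglobulin genes; per list, the 4 largest ratios; and members of the marker, MHC class II, factor and Myc lists. Exceptions, chosen after their values were seen, are the genes that lead the subclusters, other called genes of the lists, and genes carried from one reference to another.

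Subclusters used scanpy 1.11.5 and Leiden clustering at resolution 0.6 with 15 components, 10 neighbours and the means of the barcode sets removed; the resolution was chosen after 2 values had been looked at. All nuclei were kept; a score, the part of 30 neighbours that were made-up doublets, was used for an alternative only. The scripts were tested on simulated data. Values were computed with Python, numpy, scipy and pandas.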

Additional observations from a re-analysis of the deposited data

How the results depend on the processing

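No paired analysis was possible because the barcode sets carry no sample or replicate label. The dendritic nuclei share of 1.54% was 1.99% from 3 MHC class II UMIs on, 1.25% from 10 on, 1.83% without limits on Pax5, Ebf1 and Jchain, 1.29% on counts thinned to 2000 UMIs, and 1.13 to 2.12% with each barcode set left out in turn. Against other nuclei, the 325 lower genes became 506 with CPM over non-mitochondrial UMIs (which moves the median log2 ratio of all genes from -0.09 to -0.16), 2020 with CPM plus 1, 1012 with the sets weighted equally, 826 without nuclei of the highest doublet scores and 315 to 890 with a set left out, the last without set 4. Against monocyte-primed nuclei, the 335 lower genes became 510 with CPM plus 1, 156 with at least 200 UMIs, 647 with equal weights and 544 without the highest doublet scores; the 438 higher genes became 202 with at least 200 UMIs. Against B lineage nuclei, at least 200 UMIs left 184 higher and 110 lower genes, and equal weights gave 553 lower. A stricter minimum tests fewer genes; the cause of the other shifts was not tested. Leaving out subcluster 2, an alternative chosen after seeing the data, gave a share of 1.24% and 1072, 691 and 551 lower genes against the 3 references. Of 1727 values of named genes and lists under the alternatives, 1318 moved little, 409 moved further and 0 turned direction after a call. Resolution 1.2 gave 8 subclusters in place of 4, with subclusters 1 to 3 kept whole and at most 22 of the 77 nuclei of subcluster 0 together. Clustering without removal of the set means held at most 57 of the 77 together, and a smaller choice of variable genes held 44; the 3 nuclei of subcluster 3 then lay in clusters of 22 and of 34. The cycling share of 57.1% was 70.1% unthinned, 37.0% with at least 3 G2/M genes and 41.0% at 1000 UMIs. In other nuclei the share under these settings was 86.6%, 64.5% and 59.7%, higher each time. Sets 1 and 2 hold 13 and 10 dendritic nuclei, so their levels rest on few UMIs, and 1 UMI over all dendritic nuclei is 1.54 CPM.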

Other observations

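Il12b encodes the p40 chain of interleukin 12, which drives T cells toward interferon production. It was chosen after its values were seen. It had 34 UMIs in 4 dendritic nuclei, 32 of them in 2 of the 3 nuclei of subcluster 3 (15 and 17 UMIs), and 2 UMIs in the 8574 other nuclei. Cxcl9, a chemokine induced by interferon gamma and likewise chosen after its values were seen, had 61 UMIs in 12 dendritic nuclei, at most 12 in 1 nucleus, and 17 UMIs in all other nuclei.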
